A study of Mus musculus with 5 samples.

Results

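The matrix metalloproteinases (Mmp), the ADAMTS proteases (Adamts), the ADAMTS-like proteins (Adamtsl) and the tissue inhibitors of metalloproteinases (Timp) were followed through 5 single-cell RNA libraries of mouse femur marrow. Every symbol of the deposited feature lists that names a numbered gene of these 4 families was taken, except 1 Mmp gene, which gave 50 of 30099 symbols. They were 22 Mmp, 19 Adamts, 5 Adamtsl and 4 Timp genes. Of these, 46 were listed in all 5 libraries, and Mmp1a, Mmp1b, Mmp7 and Mmp21 were not listed in every library. Levels are given as CPM, the unique molecular identifiers (UMIs) of a gene per 1000000 UMIs of the cells named. In stroma and in blood cells, 19 of the 50 genes stayed below 5 CPM in every library. At least 20 CPM with at least 50 UMIs was reached by 32 genes in stroma, in blood or in a named cell class, and Mmp28 and Adamtsl5 are described besides because they passed 2-fold between stromal libraries.

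Matrix metalloproteinases are zinc proteases that are made as inactive precursors and cut collagens, gelatin, proteoglycans and other matrix proteins, either as secreted enzymes or anchored in the cell membrane. ADAMTS proteases are secreted and include the procollagen N-proteinases, which trim collagen precursors, and the proteoglycanases, which cut aggrecan and versican, whereas ADAMTS-like proteins share their ancillary domains but have no protease domain. TIMPs bind the active site of these enzymes. In marrow, such enzymes are known from the remodelling of bone matrix and from the granules of neutrophils.

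All mice carried Lepr-cre and R26R-tdTomato, in which the leptin receptor locus drives Cre, so that cells of that history and their descendants are red. Femurs without the distal growth plate were digested, and the red cells were sorted and captured on a microwell single-cell platform (BD Rhapsody). Each group was 1 library. The control mice were 15 weeks old and had no surgery. The naive group was 15 weeks old, with marrow ablation, a surgical clearing of the marrow cavity, at 13 weeks and thus 2 weeks before. The exhausted group was 15 weeks old, with ablation at 9 and again at 13 weeks. Aged mice were 18 months old without surgery, and aged-injury mice were 18 months old and studied 1 week after 1 ablation. Values below are in the order control, naive, exhausted, aged and aged-injury. With 1 library a group there was no test between groups, the intervals of ratios between libraries (95%, exact) cover counting error only, and no label says how many mice a library holds.

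After filtering, 9253, 5242, 6277, 7560 and 19497 cells remained, with a median of 6671 to 9512 UMIs a cell. Between any pair of libraries, 0 to 5 cell labels were shared. The cells formed 33 clusters, found without the genes described here, and clusters were named "-like" from marker genes (5 stayed unnamed). Despite the sort, cells with blood markers were 22.0, 23.8, 50.9, 9.63 and 1.84% of the cells, against 77.2, 70.8, 46.0, 89.2 and 93.9% for stroma, so stroma and blood were summed apart. The make-up of stroma also differed. Reticular-like cells had Lepr at 4961, 2731, 2909, 4621 and 2771 CPM, and the blood cells at 64.7 to 591 CPM. They were 75.3, 36.0, 56.0, 73.3 and 50.9% of stroma, and osteoblast-lineage-like cells were 8.46, 18.8, 12.8, 6.46 and 15.1%. A level in all stroma therefore cannot separate more cells of a type from more RNA in each. Stromal RNA was also counted in blood cells: Cxcl12 in blood stood at 8.36, 5.24, 3.12, 7.42 and 38.0% of its stromal CPM, with the highest share in the 358 blood cells of the aged-injury library.

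Of the 50 genes, 35 have a promoter in the RefSeq table of build GRCm38.p6 (38 promoters of 300 bases, from 250 before to 50 after the start). In the gene order of RefSeq, 9 members lie side by side on chromosome 9, namely Mmp12, Mmp1b, Mmp3, Mmp1a, Mmp10, Mmp8, Mmp27, Mmp20 and Mmp7. Members of this row gave different cell sources below: Mmp8 the neutrophils, Mmp3 the fibroblasts and Mmp12 macrophages and rare stromal cells. Their promoters are shown for that reason, and the promoter of Timp3, on chromosome 10, is shown beside them as that of a gene outside this row with high levels in endothelial-like, osteoblast-lineage-like and fibroblast-like cells. All are on the plus strand, and capitals mark matches to the AP-1 letters TGANTCA or the C/EBP letters TTGCNNAA, searched on both strands.
Mmp12, upstream start, chr9:7344147-7344446: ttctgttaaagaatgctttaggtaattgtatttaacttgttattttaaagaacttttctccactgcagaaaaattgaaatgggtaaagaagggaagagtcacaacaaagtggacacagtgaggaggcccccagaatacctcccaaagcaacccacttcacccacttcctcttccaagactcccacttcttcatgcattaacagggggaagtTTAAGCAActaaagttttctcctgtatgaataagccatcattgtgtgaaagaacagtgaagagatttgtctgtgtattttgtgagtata
Mmp12, downstream start, chr9:7347124-7347423: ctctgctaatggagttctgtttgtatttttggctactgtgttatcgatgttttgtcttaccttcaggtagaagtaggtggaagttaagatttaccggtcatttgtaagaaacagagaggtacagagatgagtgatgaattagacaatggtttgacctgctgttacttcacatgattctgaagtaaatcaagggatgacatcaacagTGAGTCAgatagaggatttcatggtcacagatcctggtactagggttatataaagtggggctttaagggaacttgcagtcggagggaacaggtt
Mmp3, chr9:7445572-7445871: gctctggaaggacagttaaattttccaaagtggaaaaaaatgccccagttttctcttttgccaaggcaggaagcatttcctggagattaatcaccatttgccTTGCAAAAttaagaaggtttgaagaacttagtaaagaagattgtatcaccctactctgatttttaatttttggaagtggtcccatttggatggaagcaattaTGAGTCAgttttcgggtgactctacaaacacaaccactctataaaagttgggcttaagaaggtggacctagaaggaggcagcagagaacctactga
Mmp8, chr9:7558179-7558478: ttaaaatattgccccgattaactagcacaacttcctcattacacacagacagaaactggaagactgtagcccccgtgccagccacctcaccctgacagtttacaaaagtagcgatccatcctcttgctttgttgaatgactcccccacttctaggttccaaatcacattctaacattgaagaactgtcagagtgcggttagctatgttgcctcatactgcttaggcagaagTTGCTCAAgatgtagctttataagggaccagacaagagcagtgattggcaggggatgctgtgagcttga
Timp3, chr10:86300162-86300461: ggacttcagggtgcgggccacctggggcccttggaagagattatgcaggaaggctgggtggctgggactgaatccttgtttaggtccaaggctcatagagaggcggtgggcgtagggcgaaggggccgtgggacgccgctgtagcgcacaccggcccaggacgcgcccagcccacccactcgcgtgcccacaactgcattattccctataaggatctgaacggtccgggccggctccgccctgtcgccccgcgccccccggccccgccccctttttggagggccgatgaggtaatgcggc
The AP-1 letters were in 7 of the 11 promoters of members on chromosome 9 and in 0 of the 27 other member promoters, against 7.81% of all 32851 promoters of the table. The C/EBP letters were in 6 of 11 and 0 of 27, against 10.8% of all. The chromosome 9 promoters were also poorer in G and C, with a median of 40.7% against 66% for the other members and 52.7% for all promoters, and TATAAA was in 8 of 11 and 3 of 27, against 13.6% of all. A match is a description of the letters and not a binding site.

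Most members tested were higher in stroma, and the few lower there included the neutrophil enzymes Mmp8, Mmp9 and Mmp25. Over the 5 libraries, each with its stroma and blood sum, 37 members passed the count filter of edgeR's quasi-likelihood test with the library as a block. Higher in stroma were 29 and lower 5 (Mmp8, Mmp25, Mmp9, Mmp27 and Adamts13) at an adjusted p of at most 0.05, where the background was 37.5% of all 16813 genes higher and 35.8% lower. The median log2 difference of the members was 2.93, and that of all genes 0.03. Adamts3, Adamts6 and Mmp12 were not called. By role, 4 of 4 Timp genes, 4 of 4 Adamtsl genes tested, 5 of 5 proteoglycanases tested and 4 of 5 membrane-type enzymes tested were higher in stroma. Mmp2, the type IV collagenase gelatinase A, was at 148, 265, 241, 86.6 and 474 CPM in stroma. In blood Mmp2 was at 8.65, 10.9, 8.60, 5.27 and 85.7 CPM. The log2 difference was 4.07 (SE 0.38, adjusted p 0.000139), and each library's stroma lay above its blood. The blood values were high where those of other stromal genes were: Adamts1 in blood was at 7.47, 5.69, 2.66, 7.26 and 35.2% of its stromal CPM and Mmp2 at 5.85, 4.11, 3.56, 6.09 and 18.1%. The aged-injury library had the highest share for both, as for Cxcl12, whose 38.0% there was above that of Mmp2. The part of free stromal RNA in the blood values was not tested.

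**Figure D1:**
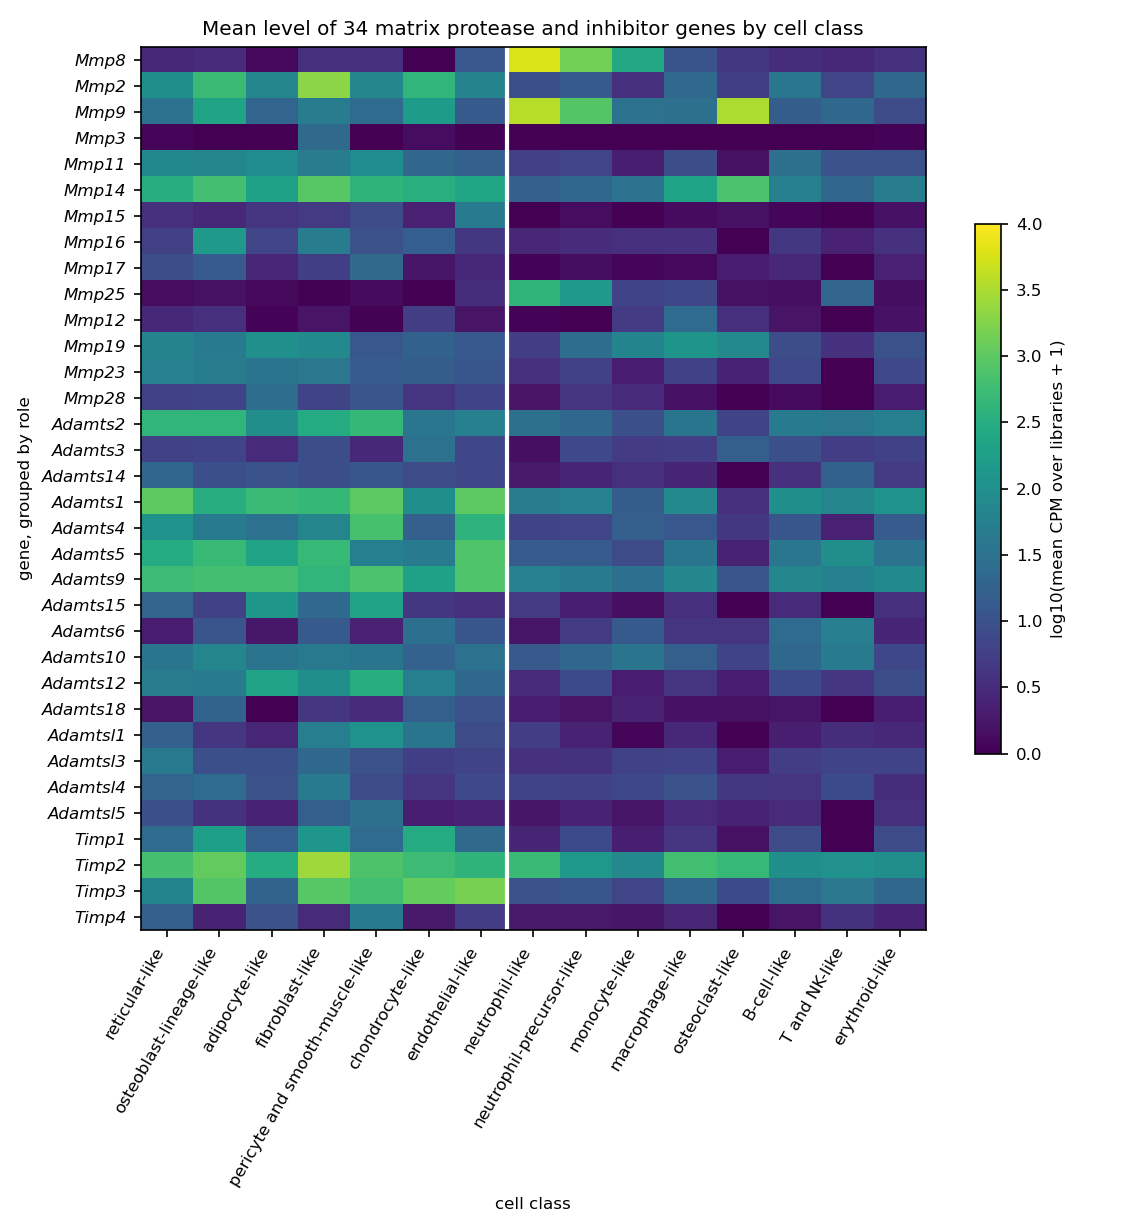
Mean CPM over libraries, as log10(mean CPM + 1), of the 34 members described (rows, by role) in 15 named cell classes (columns), with blood classes to the right of the white line. Mmp8, Mmp9 and Mmp25 are brightest in neutrophil-like cells, Mmp2 in fibroblast-like cells and Timp3 in endothelial-like cells.

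Of the members lower in stroma, the highest in blood were neutrophil collagenase, gelatinase B and a membrane-anchored enzyme. Timp2, an inhibitor higher in stroma, was also counted in blood, at 216 ± 63.8 CPM against 748 ± 166 CPM in stroma (mean ± SD, n = 5). Its blood level was 27.7, 26.6, 31.3, 26.1 and 30.8% of the stromal one. The make-up of blood differed between libraries. Of 2040, 1245, 3196, 728 and 358 blood cells, 334, 174, 601, 93 and 11 were neutrophil-like and 416, 248, 473, 239 and 218 erythroid-like. A level in all blood therefore cannot separate fewer cells of a type from less RNA in each. Mmp8, the collagenase of neutrophil granules, was at 1278, 1055, 932, 1202 and 242 CPM in blood cells. Its stromal level was 3.85, 1.77, 3.21, 1.11 and 0.187 CPM, a log2 difference of -9.16 (SE 0.49, adjusted p 1.92e-05). The stromal share of the blood level, 0.301, 0.168, 0.344, 0.0923 and 0.0775% for Mmp8, ran beside that of the neutrophil alarmin S100a8, which was 0.373, 0.207, 0.380, 0.106 and 0.0623%. Mmp25, a GPI-anchored membrane-type metalloproteinase of leukocytes, was at 123, 86.0, 73.7, 89.7 and 22.9 CPM in blood. The stroma held it at 0.250 to 0.651 CPM (log2 difference -7.34, SE 0.32, adjusted p 9.45e-06). For Mmp8 and Mmp25 the stromal level was at most 1.09% of the blood level in each library. Mmp9, gelatinase B, was at 856, 805, 736, 788 and 138 CPM in blood. In stroma Mmp9 had 42.0, 122, 73.5, 16.4 and 105 CPM, so its stromal share of the blood level reached 76.1% in the aged-injury library and was 2.09 to 15.2% in the others. The log2 difference of Mmp9 was -3.29 (SE 0.77, adjusted p 0.0074), lower in stroma in 5 of 5 libraries. Mmp27 (log2 difference -2.92, adjusted p 0.000166) was low, at 1.68 to 4.34 CPM in blood. The highest class of Mmp27 was macrophage-like cells, at 10.9 ± 7.75 CPM (n = 3), before neutrophil-like cells, at 4.22 ± 2.58 CPM. Adamts13, the von Willebrand factor protease, was called with an adjusted p of 0.0451 but was higher in stroma in 2 of 5 libraries and lost the call without the control (adjusted p 0.131), naive (0.137) or aged library (0.147).

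Within blood, mature neutrophil-like cells were set against all other blood cells in the 4 libraries with at least 20 of them (334, 174, 601 and 93 cells, with 11 in the aged-injury library). Of 22 members tested, 10 were higher and 4 lower (Adamts3, Adamts6, Mmp14 and Mmp19), where the background was 30.1% higher and 38.9% lower. Mmp8 was at 5799, 6677, 5729 and 5724 CPM in neutrophil-like cells, and 5982 ± 464 against 618 ± 167 in the other blood cells (mean ± SD, n = 4). The log2 difference was 4.09 (adjusted p 2.84e-08 by edgeR), with no overlap between the cell sets. The test scales the sums by TMM, a scaling between samples that the CPM values lack. Log2 differences in this pair are larger than the CPM means give, and the counts of members called carry the same scaling. Mmp9 differed by 3.70 on the log2 scale (SE 0.16, adjusted p 5.27e-09), from 3402 to 4048 CPM in neutrophil-like cells. Mmp25 differed by 3.62 (SE 0.18, adjusted p 1.29e-08), with 485, 433, 373 and 379.8 CPM. Timp2, an inhibitor that also takes part in the activation of Mmp2 on the cell surface, was the 1 called of the 2 inhibitors tested here. Timp2 was at 533, 465, 447 and 541 CPM in neutrophil-like cells, 496 ± 47.4 against 161 ± 53.2 in other blood cells (log2 difference 2.44, SE 0.17, adjusted p 1.14e-07). The stromal genes Adamts1, Adamts2, Adamts9, Adamtsl4 and Mmp2 were also called higher, by 0.63 to 1.09 on the log2 scale. Their means were 46.6, 28.7, 58.1, 5.52 and 8.54 CPM against 44.5, 23.8, 47.3, 3.95 and 8.32 CPM. By CPM they were higher in 2, 3, 4, 2 and 2 of the 4 libraries. The parts of the scaling and of free stromal RNA in these calls were not tested. Without 1 library the calls of Adamts1 (without control or aged, adjusted p 0.0942 and 0.0975), Adamtsl4 (without naive, exhausted or aged, 0.0726 to 0.192) and Mmp2 (without control, naive or exhausted, 0.0550 to 0.330) were lost, as was that of the lower Mmp14 (without naive or exhausted, 0.0664 and 0.127). The call of Mmp27 (log2 difference 1.52, adjusted p 0.0161) rested on 2 of 4 libraries and was lost without the control (adjusted p 0.132) or the naive library (0.0938). A Mmp8 UMI was found in 97.0, 96.6, 90.5 and 95.7% of neutrophil-like cells, against 3.19, 1.46, 2.53, 0.800 and 0.180% of stromal cells, at medians of 4748 to 6685.5 and 6470 to 9564 UMIs a cell.

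Mmp8 differed between the 3 clusters of neutrophil precursors. In the cluster of early precursors, led by Mpo and Elane, Mmp8 was at 44.3, 55.3, 81.7 and 51.7 CPM in the control, naive, exhausted and aged libraries. In the cluster led by Chil3 and Fcnb Mmp8 was at 1248, 1389, 1307 and 2326 CPM, and in the precursor cluster led by Ltf and Ly6g at 4556, 5571, 4431 and 4174 CPM. The ranges of the 3 clusters did not overlap. Macrophage-like cells (80, 125 and 348 cells in the control, naive and exhausted libraries) had other members. Mmp12, macrophage elastase, was at 12.7, 0 and 59.5 CPM there, with 0 UMIs in the naive cells, where 3 counts would be 1.24 CPM. Mmp19 was at 60.5, 157 and 128 CPM, Mmp14 at 151, 152 and 322 CPM and Timp2 at 502, 562 and 759 CPM. Adamts6, a protease of the ADAMTS family without a call between stroma and blood, averaged 51.0 ± 11.8 CPM (SD, n = 3) in T and NK-like cells, from 5 to 16 UMIs a library.

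Among stromal cells, the gelatinase Mmp2 and the inhibitors Timp1, Timp2 and Timp3 were higher in osteoblast-lineage-like and in fibroblast-like cells than in reticular-like cells. Osteoblast-lineage-like cells differed from reticular-like cells in 24 of 34 members tested, 14 higher and 10 lower, with backgrounds of 22.5 and 21.4%. The median log2 difference was 0.14 for the members and 0.02 for all genes. Mmp2 was at 359.6, 575, 461, 335 and 935 CPM in osteoblast-lineage-like cells. In reticular-like cells Mmp2 was at 80.4, 115, 101, 47.9 and 146 CPM (log2 difference 2.39, SE 0.13, adjusted p 9.07e-07). Every osteoblast-lineage-like value lay above every reticular-like value. Fibroblast-like cells were higher still, at 1712, 1858, 2108, 1476 and 2756 CPM, and differed from reticular-like cells by 4.33 (SE 0.16, adjusted p 4.12e-09). That comparison called 14 members higher and 8 lower of 34, with backgrounds of 14.9 and 15.9%. The fibroblast-like sums are of 162, 34, 79, 73 and 481 cells.

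The membrane-type enzymes were unequal in this. Mmp16 (MT3-MMP) was the member with the largest difference between osteoblast-lineage-like and reticular-like cells, at 116, 169, 121, 151 and 169 CPM against 5.57, 5.92, 5.93, 1.35 and 4.66 CPM. The log2 difference was 5.02 (SE 0.31, adjusted p 2.26e-06 by edgeR). Within the lineage, Mmp16 was at 462, 456, 417, 675 and 305 CPM in the Bglap-led cluster, 165, 267, 177, 219 and 163 CPM in the Dmp1-led cluster and 35.4, 33.0, 20.1, 22.3 and 27.9 CPM in the Wif1-led cluster. The order of the 3 clusters was the same in each library. Mmp14 (MT1-MMP), the collagenase that also activates the Mmp2 precursor, was at 658, 707, 642, 510.2 and 629 CPM in osteoblast-lineage-like cells. The reticular-like level of Mmp14 was 265, 385, 329, 224 and 349 CPM (log2 difference 0.99, adjusted p 1.32e-05). In fibroblast-like cells it was 923 ± 303 CPM (n = 5, log2 difference 1.47, adjusted p 6.29e-06). Mmp17 was called higher in osteoblast-lineage-like cells as well (log2 difference 0.75, adjusted p 0.0015), and its stromal level was 6.50, 12.9, 10.6, 6.69 and 6.55 CPM. Mmp15 was not called in this pair (log2 difference -0.59, adjusted p 0.139), and its highest class was endothelial-like cells, with 27.1, 60.4, 57.4, 16.7 and 47.3 CPM.

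Of the stromelysins, Mmp3, a broad-spectrum secreted enzyme, was close to absent from reticular-like cells (0.0753 to 0.362 CPM) and was counted in fibroblast-like cells at 3.78, 2.52, 26.6, 42.9 and 42.0 CPM. The log2 difference was 7.22 (SE 0.57, adjusted p 1.55e-06). The control and naive values rest on 6 and 1 UMIs, and the others on 24, 26 and 294 UMIs. Mmp11, which differs from the others in that it is activated inside the cell by furin, was at 54.0, 99.2, 68.3, 43.6 and 93.0 CPM in reticular-like cells. Osteoblast-lineage-like cells held Mmp11 at 51.5 to 86.7 CPM, with no call (log2 difference -0.16, adjusted p 0.332). Mmp19 and Mmp23 were modestly lower in osteoblast-lineage-like than in reticular-like cells, by -0.53 (adjusted p 0.000322) and -0.33 (0.00919) on the log2 scale.

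The proteoglycanases differed among themselves in where they were highest. Adamts1, which cuts versican and aggrecan, was at 1026, 1133, 890.4, 839 and 1114 CPM in reticular-like cells. Osteoblast-lineage-like cells had 249.8, 359, 428, 244 and 279 CPM of Adamts1, lower by -1.75 on the log2 scale (SE 0.14, adjusted p 9.94e-06), without overlap. Adamts5, the main aggrecanase of mouse cartilage, went the other way, at 667, 366, 534, 652 and 311 CPM in osteoblast-lineage-like and 449.9, 221, 317, 261 and 207 CPM in reticular-like cells. The log2 difference of Adamts5 was 0.75 (SE 0.11, adjusted p 0.000413), higher in 5 of 5 libraries. Adamts1 and Adamts5 are neighbours on chromosome 16. Adamts9 was not called between those classes (log2 difference 0.12, adjusted p 0.196). Endothelial-like cells, outside stroma and blood in the sums, averaged 990.2 ± 132 CPM of Adamts1, 784 ± 216 of Adamts5 and 792 ± 204 of Adamts9 (n = 5).

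Pericyte and smooth-muscle-like cells (22, 113, 56, 31 and 351 cells) differed from reticular-like cells in 17 of 31 members, 11 higher and 6 lower, with backgrounds of 13.4 and 16.7%. Adamts4, an aggrecanase, was at 748, 382, 584, 1246 and 444 CPM in these cells, and 112 ± 27.9 in reticular-like cells (log2 difference 2.26, SE 0.23, adjusted p 2.15e-07). Adamts15, a versican-cutting protease, was at 331, 252, 193, 73.0 and 160.2 CPM, against 19.3 ± 7.86 (log2 difference 3.06, SE 0.25, adjusted p 1.51e-08). Adamts12 was at 265, 477, 369, 127 and 298 CPM, against 46.1 ± 32.6 (log2 difference 2.68, SE 0.22, adjusted p 1.87e-08). Each of these 3 proteases was higher than in reticular-like cells in all 5 libraries. Adamts5 was lower, by -2.36 (adjusted p 5.38e-06). Adipocyte-like cells could be tested in the naive, exhausted and aged-injury libraries (120, 40 and 220 cells). There, 3 of 31 members were higher and 15 lower, with backgrounds of 12.0 and 13.2%, and the median log2 difference was -1.02 against -0.04 for all genes. The 3 higher members were Adamts15 (2.26, adjusted p 0.000193), Mmp28 (2.01, 0.0016) and Adamts12 (1.42, 0.00106), so Adamts12 and Adamts15 were called higher in both pairs. Without the naive library 3 higher and 7 lower members were called, and without the aged-injury library 3 and 19. Without the replicate block, 3 were higher and 9 lower.

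The procollagen N-proteinase Adamts2, which trims the ends of fibrillar procollagens, was not called between osteoblast-lineage-like and reticular-like cells (log2 difference -0.04, adjusted p 0.802). Its levels were 395, 469, 439.8, 462 and 356 CPM and 378, 538, 526, 364 and 335 CPM, and the ranges overlapped. Adamts14 of the same group was lower in osteoblast-lineage-like cells, by -1.20 (adjusted p 0.00422), and Adamts3 was not called (adjusted p 0.795). Among the remaining ADAMTS genes, Adamts18 was at 14.2, 15.4, 21.7, 24.4 and 16.5 CPM in osteoblast-lineage-like cells and 0.238 to 0.953 CPM in reticular-like cells (log2 difference 4.97, SE 0.30, adjusted p 2.04e-06). Adamts6 (3.33, adjusted p 1.29e-05), Adamts17 (3.22, 1.87e-06) and Adamts10 (0.83, 0.000642) were higher too. Of the ADAMTS-like genes, Adamtsl1, Adamtsl3 and Adamtsl5 were lower in osteoblast-lineage-like cells, by -2.16 (adjusted p 0.000484), -2.34 (3.4e-07) and -1.56 (0.000109). Adamtsl4, which binds fibrillin, was called higher by 0.27 (adjusted p 0.0483), a call lost without the control (adjusted p 0.108), naive (0.0788), exhausted (0.159) or aged library (0.236).

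Of the 4 inhibitors, Timp1, Timp2 and Timp3 were higher and Timp4 lower in both osteoblast-lineage-like and fibroblast-like than in reticular-like cells. Timp3, the inhibitor that stays bound to the matrix and also blocks ADAMTS enzymes, was at 1000.4, 919, 592, 813 and 946 CPM in osteoblast-lineage-like cells. Reticular-like cells had 57.1, 28.5, 31.6, 124 and 78.1 CPM of Timp3, a log2 difference of 3.88 (SE 0.30, adjusted p 8.18e-06), without overlap. In the exhausted library 5 of the 1616 reticular-like cells held 71.9% of the 437 Timp3 UMIs. Endothelial-like cells had 1271, 1613, 1411, 1469.8 and 1657 CPM. Timp1, a secreted inhibitor with affinity for the Mmp9 precursor, was at 123, 185, 124, 157 and 303 CPM in osteoblast-lineage-like cells and 23.8 ± 10.7 CPM in reticular-like cells (log2 difference 2.88, SE 0.12, adjusted p 3.27e-07). Within the lineage, Timp1 was at 402, 664, 511, 699.8 and 762 CPM in the Dmp1-led cluster. Timp2 was 2599 ± 531 CPM in fibroblast-like cells against 667 ± 106 in reticular-like cells (log2 difference 1.89, SE 0.14, adjusted p 7.12e-07), and was higher in osteoblast-lineage-like cells by 0.68 (adjusted p 0.000221). Timp4 was lower outside the reticular-like class in 3 pairs: by -3.36 in osteoblast-lineage-like (SE 0.17, adjusted p 8.26e-07), -3.07 in fibroblast-like (0.000298) and -0.89 in adipocyte-like cells (0.0486). The adipocyte call of Timp4 was lost without the naive (adjusted p 0.261), the exhausted (0.122) or the aged-injury library (0.102), and without the block (0.212). In pericyte and smooth-muscle-like cells Timp4 was higher by 1.08 (adjusted p 0.00602, 4 of 5 libraries), and without the aged-injury library the call was lost (adjusted p 0.0657), as it was without the block (0.297).

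**Figure D2:**
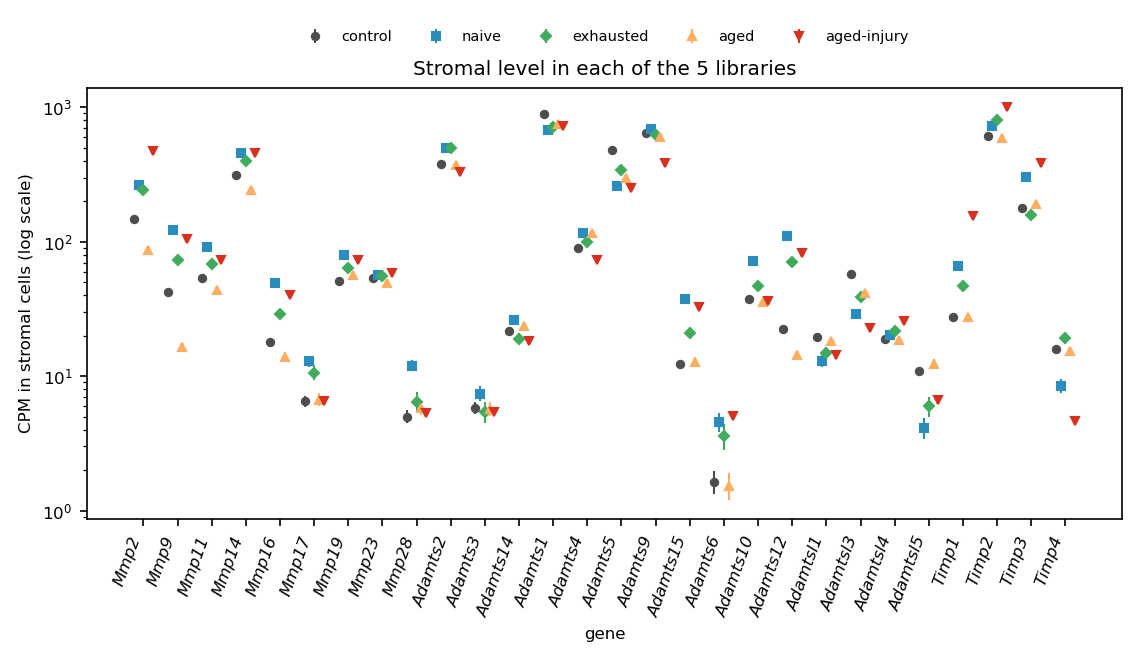
CPM in stroma on a log scale for the 28 members described that reached 5 CPM there (horizontal axis) in each of the 5 libraries (symbols), with 95% exact Poisson intervals of counting error as bars. Adamts12, Mmp2, Mmp9, Mmp16 and Timp1 have both uninjured libraries, control and aged, as their lowest 2 values, which for Mmp9 no longer holds without the 5 cells of each library richest in it (exhausted 19.9 and control 27.1 CPM). With all cells, 35.2% of all genes in stroma have both uninjured libraries lowest.

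Between libraries, the members past 2-fold in the ablated stroma were mostly higher, and Adamts12, Adamts15, Mmp9, Mmp16 and Timp1 were among them in the young and in the aged pair. For Mmp9 the young ratio of 2.91 became 1.93 without the 5 stromal cells of each library that held most of its UMIs. In naive against control stroma, 6 members were at least 2-fold higher (Adamts12, Adamts15, Mmp9, Mmp16, Mmp28 and Timp1) and 1 lower (Adamtsl5) of 27 measured at 5 CPM or more. The background was 4.97% of genes higher and 1.80% lower. With TMM scaling, which moves all genes by -0.17 on the log2 scale in this comparison, 6 were higher and 4 lower. In aged-injury against aged stroma, 8 members were higher (Adamts6, Adamts12, Adamts15, Mmp2, Mmp9, Mmp16, Timp1 and Timp3) and Timp4 lower, of 28, with backgrounds of 6.21 and 2.51%. Adamts6 entered that count only through its aged-injury level of 5.02 CPM, against 1.53 CPM in aged, and in the young pair it was below 5 CPM in both libraries (4.54 and 1.63 CPM). Exhausted against control gave 1 higher (Adamts12) and 0 lower of 27 (backgrounds 2.14 and 1.03%). Exhausted against naive gave Timp4 higher and 0 lower (0.590 and 1.18%), and aged against control gave Mmp9 lower and 0 higher (0.685 and 0.917%). The median log2 ratio of the members was 0.40 in naive against control (all genes 0.15), 0.30 in exhausted against control (0.07), -0.07 in aged against control (-0.04) and 0.14 in aged-injury against aged (0.09).

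Adamts12, which can cut cartilage oligomeric matrix protein, had the largest ratio in the naive stroma. It was at 22.3, 111, 70.9, 14.3 and 82.7 CPM, so that all 3 ablated libraries lay above both uninjured ones, as for 35.2% of all genes. The ratios of Adamts12 were 4.97 (95% interval 4.68 to 5.29) for naive against control, 3.18 (2.96 to 3.41) for exhausted against control and 5.78 (5.36 to 6.23) for aged-injury against aged. A UMI of Adamts12 was in 12.4, 36.3, 27.9, 7.07 and 38.9% of stromal cells, and in 4.15, 16.2, 12.0, 2.72 and 13.1% after thinning each cell to 2000 UMIs. Blood cells, which serve as background, had it in 1.62, 2.97, 1.69, 1.24 and 16.2%, at medians of 8987, 8556, 8036.5, 7399.5 and 8956.5 UMIs a cell against 8304, 7068, 6470, 6535.5 and 9564 in stroma. The higher level was also seen within reticular-like cells, at 16.1, 85.8, 57.9, 8.96 and 61.9 CPM (ratios 5.33 and 6.91 for the young and aged pair). The reticular-like class came from different clusters in different libraries: the Cbln1- and Grem1-led cluster was 5.098, 57.3, 50.2, 6.17 and 52.0% of the class, and the Igfbp3-led cluster 44.0, 7.11, 17.3, 33.5 and 6.03%. Within the Cbln1-led cluster alone, Adamts12 was at 24.9, 88.7, 61.7, 14.9 and 70.3 CPM. Within the Igfbp3-led cluster Adamts12 was at 13.4, 30.4, 31.7, 5.36 and 26.9 CPM, where the naive value is of 95 cells.

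Adamts15 was at 12.3, 37.7, 20.9, 12.8 and 32.5 CPM in stroma (ratios 3.07 and 2.55 for the young and aged pair). Mmp2 was at 1.79 times (1.74 to 1.85) the control level in naive stroma and at 5.47 times (5.31 to 5.64) the aged level in aged-injury stroma. For Mmp2 the same direction was seen in reticular-like cells (ratios 1.43 and 3.05) and in osteoblast-lineage-like cells (1.60 and 2.79). In the Cbln1-led cluster Mmp2 was at 65.9, 119, 111, 26.6 and 139 CPM. The aged library had the lowest Mmp2 in each of these cell sets. In fibroblast-like cells the lowest was also aged and the highest aged-injury. Timp1 was at 27.5, 66.5, 46.8, 27.7 and 155 CPM in stroma, a ratio of 2.42 (2.27 to 2.58) in the young and 5.58 (5.29 to 5.90) in the aged pair. In the young pair Timp1 was past 2-fold in neither reticular-like nor osteoblast-lineage-like cells. In the aged pair it was so in reticular-like but not in osteoblast-lineage-like cells. Osteoblast-lineage-like cells, where Timp1 was higher, were 8.46% of control and 18.8% of naive stroma. Their part in the stromal ratio of Timp1 was not tested. The unnamed stromal cluster led by Hmga2, Cd248 and Acta2, of which 1220 of 1381 cells were in the aged-injury library, held Timp1 at 392 CPM and Mmp2 at 694 CPM there. In aged-injury against naive stroma, where age and time after surgery both differ, Timp1 stood at 155 and 66.5 CPM and Mmp28 at 5.32 and 12.0 CPM.

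**Figure D3:**
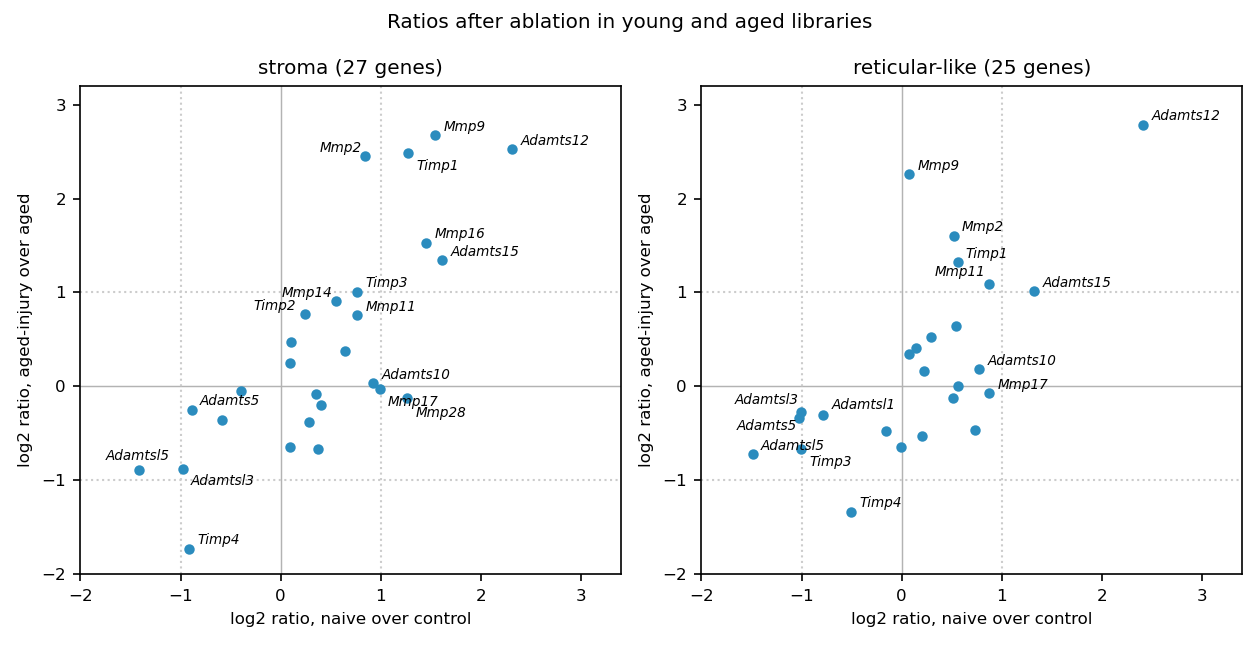
Log2 ratio of CPM for naive over control (horizontal) and aged-injury over aged (vertical), 1 point a member, in stroma and in reticular-like cells, with dotted lines at 2-fold. Adamts12 is past 2-fold in both comparisons in both cell sets, and the young and aged pairs differ in the time since surgery.

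For Timp3 and Mmp16, too, the ratio in all stroma and the ratio within a class differed. Timp3 was at 177, 302, 159, 191 and 384 CPM in stroma, with ratios of 1.70 in the young and 2.01 (1.97 to 2.06) in the aged pair. Within reticular-like cells Timp3 was lower after ablation, with ratios of 0.499 (0.446 to 0.557) and 0.630 (0.608 to 0.653). Inside the Cbln1-led reticular-like cluster Timp3 was at 30.4, 27.3, 21.0, 41.1 and 43.4 CPM, with the ablated value below the uninjured one in the young pair and above it in the aged pair. In osteoblast-lineage-like cells Timp3 was at 919 against 1000.4 CPM in the young pair and 946 against 813 CPM in the aged pair. The share of osteoblast-lineage-like cells, where Timp3 was higher, was higher in the naive and aged-injury libraries, and its part in the stromal ratio was not tested. Mmp16 was at 18.0, 49.3, 29.1, 14.0 and 40.4 CPM in stroma, ratios of 2.73 (2.53 to 2.95) and 2.89 (2.68 to 3.13). In reticular-like cells the young ratio of Mmp16 was 1.06 (0.812 to 1.37) and in osteoblast-lineage-like cells 1.46. In the aged pair Mmp16 gave 3.44 (2.59 to 4.65) and 1.12 in those classes, from an aged reticular-like level of 1.35 CPM (54 UMIs).

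**Figure D4:**
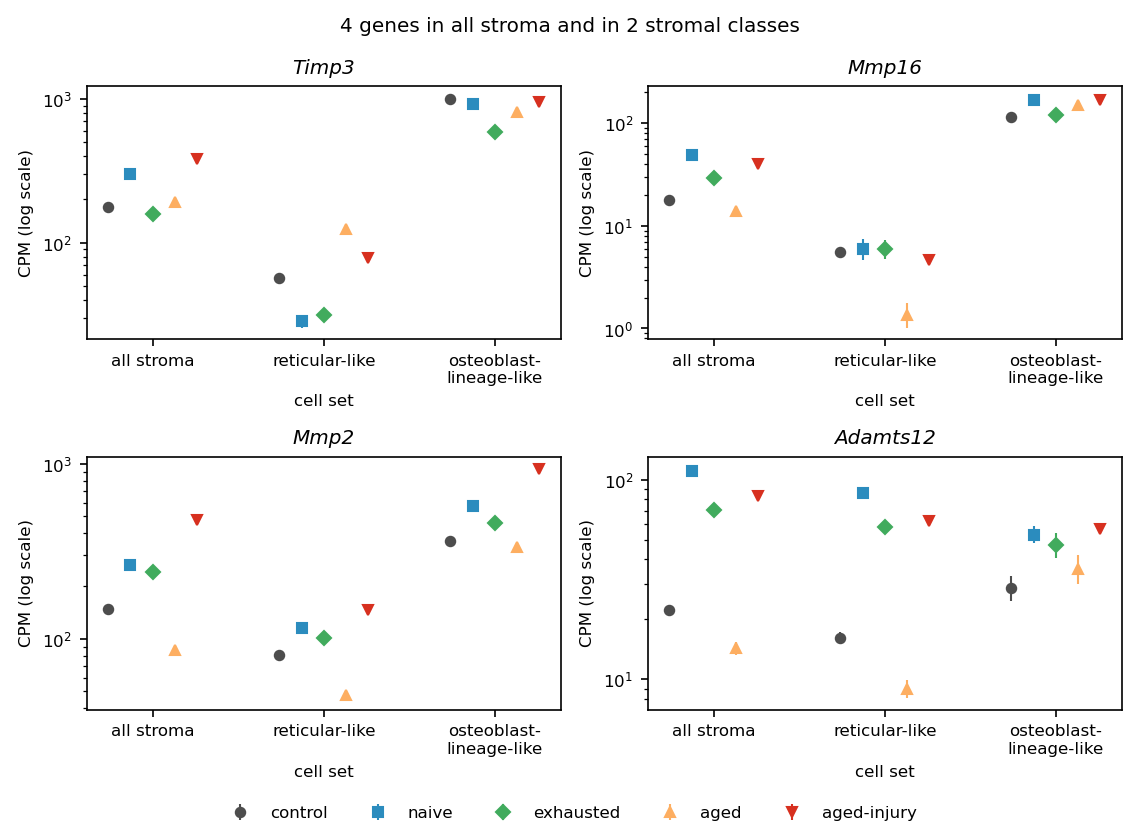
CPM on a log scale for Timp3, Mmp16, Mmp2 and Adamts12 in all stroma, in reticular-like and in osteoblast-lineage-like cells, 1 symbol a library, with 95% exact Poisson intervals of counting error. For Timp3 the naive library is above control and the aged-injury library above aged in all stroma, and each is below its uninjured counterpart in reticular-like cells, whereas Adamts12 is higher in the ablated libraries in each of the 3 cell sets. All 3 ablated libraries lie above both uninjured ones for 35.2, 28.3 and 11.5% of all genes in these sets.

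The members that were lower after ablation were fewer. Timp4 was at 16.0, 8.47, 19.1, 15.2 and 4.60 CPM in stroma, with ratios of 0.530 (0.463 to 0.606) in the young and 0.302 (0.274 to 0.332) in the aged pair. The exhausted library was 2.25 times (1.93 to 2.63) the naive one and lay above both uninjured libraries. In the Cbln1-led reticular-like cluster Timp4 was at 22.3, 11.8, 21.3, 27.5 and 7.30 CPM, with the naive value below control and the aged-injury value below aged. Adamts5 was at 480.2, 259, 340.1, 298 and 251 CPM in stroma and 0.540 times the control level in the naive library. In reticular-like cells its ratio was 0.492 (0.472 to 0.511). In osteoblast-lineage-like cells Adamts5 had a ratio of 0.548 in the young and 0.477 (0.457 to 0.498) in the aged pair. Adamtsl3 was at 57.4, 29.1, 38.9, 41.8 and 22.8 CPM, and Adamtsl5 at 10.9, 4.08, 5.94, 12.4 and 6.67 CPM. For both ADAMTS-like genes the 3 ablated values lay below the 2 uninjured ones, as for 12.7% of all genes in stroma.

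Within reticular-like cells, 2 members were past 2-fold higher and 4 lower in naive against control (Adamts12 and Adamts15, and Adamts5, Adamtsl3, Adamtsl5 and Timp3), with backgrounds of 2.27 and 1.94%. The aged-injury against aged count was 6 higher (Adamts12, Adamts15, Mmp2, Mmp9, Mmp11 and Timp1) and 1 lower (Timp4), with 2.45 and 1.54%. Exhausted against control gave Adamts12 higher and 0 lower (1.46 and 1.50%), exhausted against naive Timp4 higher and 0 lower (0.492 and 0.659%), and aged against control Timp3 higher, at 124 against 57.1 CPM, and Mmp16 lower (0.851 and 0.643%). Osteoblast-lineage-like cells had 0 past 2-fold in the young pair (2.06 and 1.83%). In their aged pair Adamts3, Adamts15, Adamtsl1, Mmp2 and Mmp9 were higher and Adamts5 lower (3.82 and 6.83%). Adamts15 passed 5 CPM in that pair only in aged-injury, with 244 UMIs, against 8 UMIs in 4 aged cells. Over the 5 libraries, Adamts3 and Adamtsl1 averaged 5.27 ± 1.75 and 3.30 ± 2.02 CPM in this class (SD). In osteoblast-lineage-like cells, exhausted against control gave Adamts15 and Adamts17 higher and Mmp28 lower (1.80 and 1.81%). Adamts15 passed 5 CPM there only in the exhausted library, with 30 UMIs, of which 5 cells held 56.7%, against 24 UMIs in control. Exhausted against naive gave Mmp28 lower and 0 higher (1.14 and 1.01%), and aged against control Mmp9 lower and 0 higher (1.58 and 1.57%). Over all 5 libraries, 13 of 28 members in stroma had their 3 ablated values above both uninjured ones and 4 below, where 35.2% of all genes lay above and 12.7% below. In reticular-like cells 12 of 27 members lay above and 3 below (backgrounds 28.3 and 11.9%). In osteoblast-lineage-like cells 11 of 29 members lay above and 2 below (backgrounds 11.5 and 16.4%).

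Of the members not yet described in stroma, those that reached 5 CPM in at least 1 of the libraries compared were past 2-fold in none of the 5 main comparisons, except Adamts6 and Mmp28 as given above. Mmp11 was at 53.6, 91.0, 67.9, 43.4 and 73.6 CPM, and Mmp14 at 312, 457, 401, 244 and 458 CPM. Mmp19 ranged from 51.3 to 80.0 CPM and Mmp23 from 49.3 to 58.3 CPM. These 4 metalloproteinases were each higher in all ablated than in all uninjured libraries, as were 35.2% of all genes. For Mmp23 the gap was small, with 55.3 CPM in exhausted and 53.4 CPM in control stroma (ratio 1.04). Adamts1 was at 893, 678, 719, 748 and 725 CPM, with all ablated values below the uninjured ones, as for 12.7% of all genes. Timp2 was at 616, 730.2, 810.2, 586 and 998 CPM, with all ablated values above, as for 35.2%. The procollagen proteinase Adamts2 was at 375, 496, 498, 375 and 327 CPM. Adamts14 of the same group was at 21.6, 26.2, 19.0, 23.8 and 18.3 CPM. The proteoglycanases Adamts4 and Adamts9 were at 90.1, 116, 99.9, 116 and 73.1 CPM and at 647, 692, 620.0, 601 and 383 CPM, with aged-injury lowest in both. Adamts10, which binds fibrillin, was at 37.7, 71.4, 46.5, 35.4 and 36.2 CPM. Adamts18, below 5 CPM in each library and so not counted, was at 2.25, 4.97, 4.51, 2.90 and 4.29 CPM, with ratios of 2.21 (1.76 to 2.79) for naive and 2.01 (1.54 to 2.60) for exhausted against control. Adamtsl1 ranged from 13.0 to 19.4 CPM, Adamtsl4 from 18.6 to 25.8 CPM and Adamts3 from 5.40 to 7.41 CPM. Adamts6 was at 1.63, 4.54, 3.56, 1.53 and 5.02 CPM, and Mmp28 at 4.98, 12.0, 6.46, 5.81 and 5.32 CPM.

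A few cells held much of the stromal Mmp9. In osteoblast-lineage-like cells Mmp9 was at 218, 395, 321, 27.2 and 126 CPM (log2 difference from reticular-like cells 2.67, SE 0.59, adjusted p 0.0051). A UMI of Mmp9 was found in 15.7, 16.8, 10.9, 7.11 and 17.5% of these cells, and the 5 cells with most UMIs held 63.6, 72.2, 96.0, 61.7 and 43.9% of them. In the exhausted library 1 cell held 1091 of 1287 UMIs. Cells with at least 20 Mmp9 UMIs numbered 13, 15, 2, 1 and 41. Among them, a UMI of the osteoclast phosphatase Acp5 was found in 0, 0, 0, 0 and 2 cells, one of the osteoclast proton pump gene Atp6v0d2 in 0, 1, 1, 0 and 0 and one of the collagenolytic protease Ctsk, cathepsin K, in 8, 14, 1, 0 and 40. Ctsk was at 157 to 233 CPM in all osteoblast-lineage-like cells and at 126 to 201 CPM in reticular-like cells. Among the high-Mmp9 cells, the bone collagen gene Col1a1 had a UMI in 11, 15, 2, 1 and 41. Col1a1 was also in 69 of the 69 aged-injury reticular-like cells with as much Mmp9. Of the osteoblast-lineage-like ones, 13, 14, 2, 1 and 41 had Spp1 and 11, 13, 2, 1 and 39 Ibsp. Fewer had Bglap (5, 8, 1, 1 and 22) or Dmp1 (3, 3, 0, 0 and 13). The leukocyte gene Ptprc was found in 2, 0, 0, 0 and 0 of these osteoblast-lineage-like cells and the neutrophil gene S100a8 in 7, 3, 1, 0 and 2. Osteoclast-like cells of the exhausted library, as a comparison, had 3232 CPM of Mmp9 with 1829.8 CPM of Acp5, 1626 CPM of Atp6v0d2 and 5678 CPM of Ctsk. The Dmp1-led cluster had Mmp9 at 563, 1513, 2299.6, 76.9 and 303 CPM, with Acp5 at 0 to 2.28 CPM. There the 5 cells with most UMIs held 83.9, 89.3, 100, 96.1 and 61.9% of them, and in the exhausted library 1 of 44 cells held 1091 of 1120.

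Without the 5 stromal cells of each library that held most Mmp9 UMIs, an alternative chosen after the data were seen, the stromal level was 27.1, 52.2, 19.9, 14.4 and 89.1 CPM. The ratio of Mmp9 moved from 2.91 to 1.93 in naive against control and from 0.392 to 0.530 in aged against control, so that neither was past 2-fold. It moved from 1.75 to 0.734 in exhausted against control. In aged-injury against aged the ratio was 6.39 with and 6.21 without those cells. In aged-injury stroma more cells had Mmp9. Within reticular-like cells Mmp9 was at 20.8, 21.9, 16.0, 16.2 and 77.7 CPM, and 1899 of 9320 aged-injury cells (20.4%) had a UMI. The 5 highest of those cells held 9.15% of the UMIs, and the 69 cells with at least 20 UMIs held 37.0%, against 1 such cell with 5.90% in the control library. The Kit- and Cxcl9-led reticular-like cluster, of which 1191 of 1278 cells were in that library, had 201 CPM there, with 56.3% of the UMIs in 41 cells, and the Hmga2-led unnamed cluster 217 CPM, with 51.9% in 73 cells. When the 5 highest cells of each gene were left out in this way, 6 of the 7 members past 2-fold in naive against control were still past it, all but Mmp9, and 9 of 9 in aged-injury against aged. Adamtsl3 (0.498) and Timp4 (0.499) came to be past 2-fold lower in naive against control, for 5 higher and 3 lower in all.

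**Figure D5:**
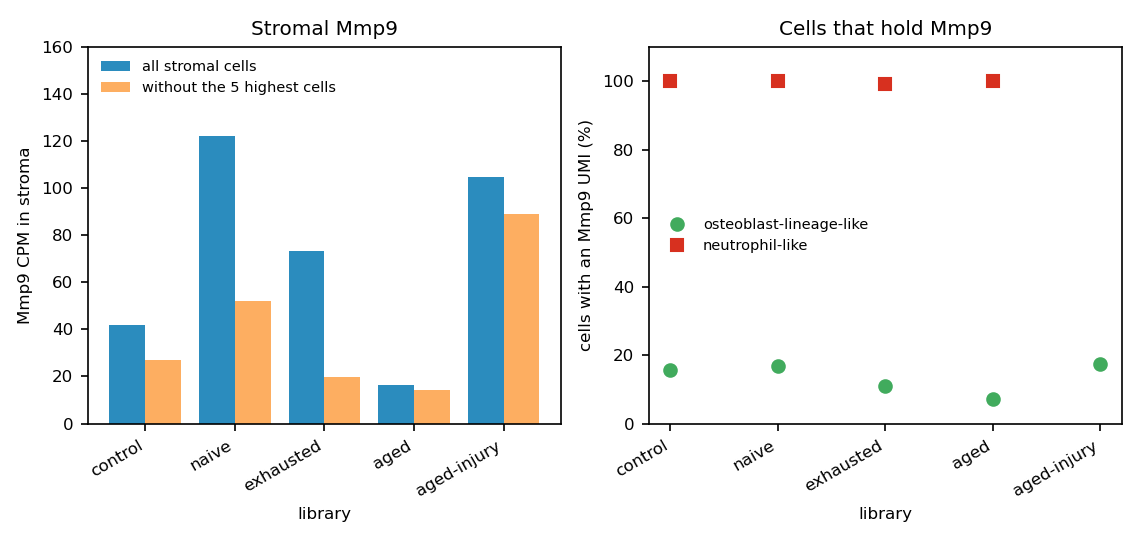
Left, Mmp9 CPM in stroma by library with all cells (blue) and without the 5 cells that hold most Mmp9 UMIs (orange). Right, the percentage of osteoblast-lineage-like and of neutrophil-like cells with at least 1 Mmp9 UMI, where neutrophil-like cells range from 99.3 to 100% and osteoblast-lineage-like cells from 7.11 to 17.5%. The aged-injury library, with 11 neutrophil-like cells, has no neutrophil-like point.

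Mmp12, which had no call between stroma and blood, was counted in stroma in few cells. The unnamed stromal cluster led by Dnah12 and Pde4c (642 cells) had Mmp12 at 94.9, 87.3, 67.2, 18.4 and 66.3 CPM, from 70, 61, 15, 14 and 49 UMIs. In the control library 3 cells held all 70 UMIs, and in the other libraries 12, 6, 7 and 19 cells had a UMI. All stroma had Mmp12 at 1.17 to 4.15 CPM.

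Genes that act on or with these enzymes were counted from lists of the pathway, against backgrounds of 4.97% of genes higher and 1.80% lower in the young pair and 6.21 and 2.51% in the aged pair. Of the plasminogen system and proprotein convertases, 3 of 8 measured were past 2-fold higher and 0 lower in naive against control stroma, and 4 of 9 higher and 0 lower in aged-injury against aged. The highest in both was Plaur, the urokinase receptor, at 15.1 against 4.67 CPM and 21.7 against 1.85 CPM. Of other inhibitors and clearance receptors, 0 of 4 were past 2-fold in either direction in both pairs, with Tfpi2 highest (22.9 against 16.3 CPM in the young pair) and Cst3 lowest (1483 against 2279.8 CPM). Of the Adam proteases, 1 of 7 was higher (Adam19, 43.2 against 21.0 CPM) and 1 lower (Adamdec1, 12.4 against 54.3 CPM) in the young pair, and 0 of 7 in the aged pair. Of other matrix proteases, Bmp1, the procollagen C-proteinase, was the 1 of 8 past 2-fold higher in both pairs, at 255 against 124 CPM and 239 against 106 CPM. Of the matrix substrates, 8 of 12 were higher and 1 lower in the young pair and 9 of 12 higher in the aged pair. Acan, the aggrecan core protein, was the highest, at 31.0 against 0.471 CPM and 105 against 0.141 CPM, and Dcn, decorin, the lowest in the young pair at 229 against 831 CPM. Acan is a marker of the chondrocyte-like cells, which count as stroma and were 0, 2, 3, 0 and 237 cells. Their part in the Acan ratios was not tested.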

How the data were processed

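The deposited files hold, for each of 5 libraries, raw UMI counts per gene and cell, with the gene and cell names; per the submitters' processing notes, Seurat 5.1 and genome build GRCm39 were used, and the aligner is not given in the sources used here. The members and gene lists were chosen with earlier results of these data known. Cells with at least 500 genes, 1000 UMIs and at most 25% mitochondrial UMIs were kept. They were clustered without the members or transgenes (scanpy 1.11.5, 2000 variable genes, 30 components, 15 neighbours, Leiden resolution 1). Clusters were named from marker lists by thresholds set after the clusters were seen: at least 3 markers and a fraction of 0.5 of the list, each in 10% of cells and 1.5-fold higher. The class also had to have the most markers among the 10 leading genes of the cluster. Clusters where classes tied in the fraction of the list stayed unnamed. No doublet caller was run, so doublets remain. UMIs were summed per library and class of at least 20 cells.

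Classes were compared with edgeR 4.0.16 (quasi-likelihood test, TMM, R 4.3.3), with the library as a block since both sums come from the same library, and Benjamini-Hochberg adjustment over all genes tested. The test was tested on simulated data. Libraries were compared by ratios of CPM, with exact intervals at 95%, among genes of at least 5 CPM in either library, and a ratio of 2 in either direction was counted. Shares of cells with a UMI were also taken after thinning cells to 2000 UMIs, without shallower cells (in stroma 291, 215, 211, 492 and 2100 cells, in the order of the libraries). Members of at least 20 CPM and 50 UMIs, or past 2-fold in stroma, are described one by one, others by counts, and of the other pathway genes the highest and lowest ratio of each list. DESeq2 1.42.0, other filters, other scalings, other cell sets and each library left out were tried. Leaving out the unnamed stromal clusters, the Hmga2-led cluster, or the 5 cells richest in a gene was chosen after the data were seen. One further member of the Mmp family is not reported here.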

Additional observations from a re-analysis of the deposited data

Results flagged for a closer look

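Adamts4, Adamts9, Adamts14 and Adamts2 had stromal ratios of opposite sign in the 2 ablation pairs, each with a counting interval (95%) that leaves out 1, and the difference between the pairs was not tested. Adamts4 had a log2 ratio of -0.67 in aged-injury against aged and 0.37 in naive against control. Adamts9 had -0.65 and 0.10, Adamts14 had -0.38 and 0.28, and Adamts2 had -0.20 and 0.40. The pairs differ in age and in the time since surgery, and these cannot be told apart. Mmp28 (-0.13 and 1.27), Mmp17 (-0.03 and 0.99) and Adamts3 (-0.08 and 0.35) also had opposite signs, but the interval of their aged ratio holds 1. Each pair holds 1 library a group.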

How the results depend on the processing

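Each group was 1 library and stromal make-up differed between libraries, so ratios cannot be assigned to ablation, age or library, and low members are limited by depth. Over the repeats of the 129 called class differences, 907 kept direction and call and 72 kept the direction but lost the call, most often without the naive library (17) and without the replicate block (16). Without the replicate block the counts of called members were 33 for stroma against blood (main 34), 23 for osteoblast-lineage-like (24), 12 for adipocyte-like (18), 19 for fibroblast-like (22), 16 for pericyte (17) and 12 for neutrophil-like cells (14). With each library left out in turn they were 33 to 35, 23 to 24, 10 to 22, 20 to 23, 15 to 18 and 10 to 14. With DESeq2 they were 34, 23, 18, 23, 17 and 11.

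Counts past 2-fold in stroma moved more. Naive against control (7) gave 14 with no CPM filter, 11 as a mean over cells, 13 with cells gated one by one and 11 without the unnamed clusters. Exhausted against control (1) gave 6 with no CPM filter and 2 with stricter cell filters, as a mean over cells, without cells that have a Ptprc UMI or the highest depth, with cells gated one by one and without the unnamed clusters. Exhausted against naive (1) gave 4 with no CPM filter, 0 at 20 CPM or more, 2 without the unnamed clusters and 4 without the 5 richest cells. Aged against control (1) gave 5 with no CPM filter, 2 with stricter cell filters or in reticular-like cells alone, and 0 without cells that have a Ptprc UMI or the highest depth and without the 5 richest cells. Aged-injury against aged (9) gave 21 with no CPM filter. Without that filter a gene needed only more than 3 UMIs in either library. A share over all genes is given for the main settings alone, so counts under other settings have no background beside them. The stromal log2 ratio of Timp3 in aged-injury against aged, 1.01, was -0.67 in reticular-like cells alone. The 17 members whose ablated and uninjured libraries did not overlap became 19 to 20 with an ablated library left out. With fewer ablated libraries non-overlap is easier to meet, so no conclusion is drawn from this rise. The causes were not tested.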
